A study of Homo sapiens with 6 samples.

Results

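The genes described here form the route by which a cell takes up choline and turns it into phosphatidylcholine: SLC44A1 with its paralogs SLC44A2, SLC44A3 and SLC44A4, and the Kennedy pathway enzymes CHKA, CHKB, PCYT1A, PCYT2, CEPT1 and CHPT1. They were chosen by gene symbol, with earlier results of these data known. They are a choline transporter that the study places downstream of miR-8485, its relatives and the enzymes downstream. All 10 were found once each among the 58735 genes listed. The RNA-seq data comprised 6 libraries of the HCT116 line, a human colorectal carcinoma, with the genotype given as WT in the controls and as miR-8485 mimics in the others. Control cells (CTR) gave 3 libraries, and cells transfected with miR-8485 mimics gave the other 3 (miR-8485), by the study's methods with 50 nM mimic and a harvest at 48 h or another stated time. The study describes CTR cells as transfected with a control, whose oligonucleotide and dose are not given in the sources used here. The libraries are described as independent biological replicates of 1 cell line, and a mimic, a synthetic RNA added in excess, models a high dose of the miRNA rather than its own expression.

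Phosphatidylcholine is the most abundant phospholipid of most mammalian cell membranes. Choline crosses the membrane on transporters, is phosphorylated by a choline kinase, is joined to a cytidine nucleotide to give CDP-choline, and is then transferred to diacylglycerol. The making of CDP-choline, carried out by the product of PCYT1A, usually limits the rate. Ethanolamine runs through a parallel branch, in which the product of PCYT2 makes CDP-ethanolamine. Proliferating tumor cells often hold high phosphocholine, and CHKA is the kinase most often linked to it.

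Data were FPKM, which are fragments divided by the length of the gene and the total of the library, so that levels can be compared between genes per length. Behind them stood 17473874 to 17888110 fragments per CTR library and 17710376 to 18480047 per miR-8485 library. Pairs within a group that included CTR replicate 1 differed more in their fragments (chi-square per gene 8.46 and 10.5) than the other 4 pairs within a group (2.75 to 3.87), and pairs between groups differed by 61.0 to 70.3. Of 8 markers of colon epithelium, 6 (EPCAM, KRT8, KRT18, KRT19, CDH1 and CDX2) were above 1 FPKM in every library, while VIL1 and LGR5 were at most 0.0639 FPKM. The summed level of the 8 was 2613 to 2838 FPKM in CTR and 1751 to 1838 FPKM in miR-8485. Nearly all of that sum was KRT8, KRT18 and KRT19, while EPCAM had means of 134.9 and 130.3 FPKM, CDH1 of 19.7 and 19.0 FPKM, and CDX2 was higher with 16.0 and 28.2 FPKM. Markers of leukocytes summed to at most 0.729 FPKM, with CD3E at 0 in all libraries, and those of endothelium to at most 0.240 FPKM. The 4 fibroblast markers summed to 4.26 to 4.51 FPKM in CTR and 6.32 to 6.50 FPKM in miR-8485, nearly all of it COL1A1, with LUM and COL1A2 at or near 0. The part of these marker shifts in the results below was not tested.

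The sequences that matter here are the mimic and the places in the 3′ UTRs of these genes that pair with its seed, since a miRNA mainly recognizes mRNAs through bases 2 to 8. The mimic is printed 5′ to 3′ from the study's methods with the seed in capitals. The 3′ UTR places are printed in the sense of the mRNA, from GENCODE release 44 on GRCh38 (hg38), with every base that lies in a copy of TGTGTGT, the match of the seed, in capitals. They are the longest run of SLC44A1 on the plus strand (chr9:105394417-105394445), both places of SLC44A2 on the plus strand (chr19:10643109-10643125 and chr19:10643992-10644010) and the single place of PCYT1A on the minus strand (chr3:196235649-196235666).
miR-8485 mimic: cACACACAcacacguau
SLC44A1: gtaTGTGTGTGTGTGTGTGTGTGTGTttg
SLC44A2, first: gatccTGTGTGTccctc
SLC44A2, second: tgggagTGTGTGTgcccag
PCYT1A: gcctcTGTGTGTgagaca

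In the longest annotated 3′ UTR of each gene, searched on the mRNA strand with overlapping copies counted, TGTGTGT occurred 20 times in the 8290 bases of SLC44A1, 2 times in the 1539 bases of SLC44A2 and 1 time in the 4320 bases of PCYT1A. The copies of SLC44A1 lay in 5 separate TG repeats, up to 23 bases long, with 9 and 7 copies in the longest of them. In SLC44A3, SLC44A4, CHKA, CHKB, PCYT2, CEPT1 and CHPT1 the word was not found. Genes with at least 1 copy thus numbered 3 of 10, against 30.2% of the 10673 tested genes with an annotated 3′ UTR. CHKB and SLC44A4, below a mean of 1 FPKM, are not among those tested genes, which leaves 3 of 8 members. As many copies as in SLC44A1, or more, were found in 0.52% of the 10673 genes. Their median 3′ UTR had 1460 bases, and the counts were not matched for length. In the transcript tagged as canonical, SLC44A2 held only the second of its places and the other counts were as before. Which 3′ UTRs the cells used was not measured, and a match of letters is not evidence of a site in use.

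With miR-8485 mimics, the mRNA of PCYT1A fell to 42.3% of its CTR level and that of SLC44A2 to 48.0%, while SLC44A3 rose to 157% and PCYT2 to 136%. SLC44A1, CHPT1 and CHKA moved by little, and no change was called for CEPT1, CHKB or SLC44A4. Log2(FPKM + 0.1) was tested with limma, two-sided, over the 12349 genes with a mean of at least 1 FPKM, with 0.05 as the threshold for calls after Benjamini-Hochberg adjustment. Of the 8 members above this level, 3 were called higher and 4 lower. Much of the transcriptome differed between the groups, with 59.6% of all tested genes called, 29.1% higher and 30.5% lower, so 7 called of 8 is to be read against that share. The 2 groups of libraries did not overlap for 7 of the 8, against 66.5% of all tested genes. Falls of at least 1 on the log2 scale, which PCYT1A and SLC44A2 had, were called for 4.49% of all tested genes. Rescaling the values to TPM moved the median over all tested genes from -0.0041 to -0.12 on the log2 scale, which gave 2 members called higher and 5 lower, where 59.4% of all tested genes were called, 21.2% higher and 38.3% lower. In such bulk RNA, fewer cells of a type and less RNA per cell cannot be told apart.

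**Figure D1:**
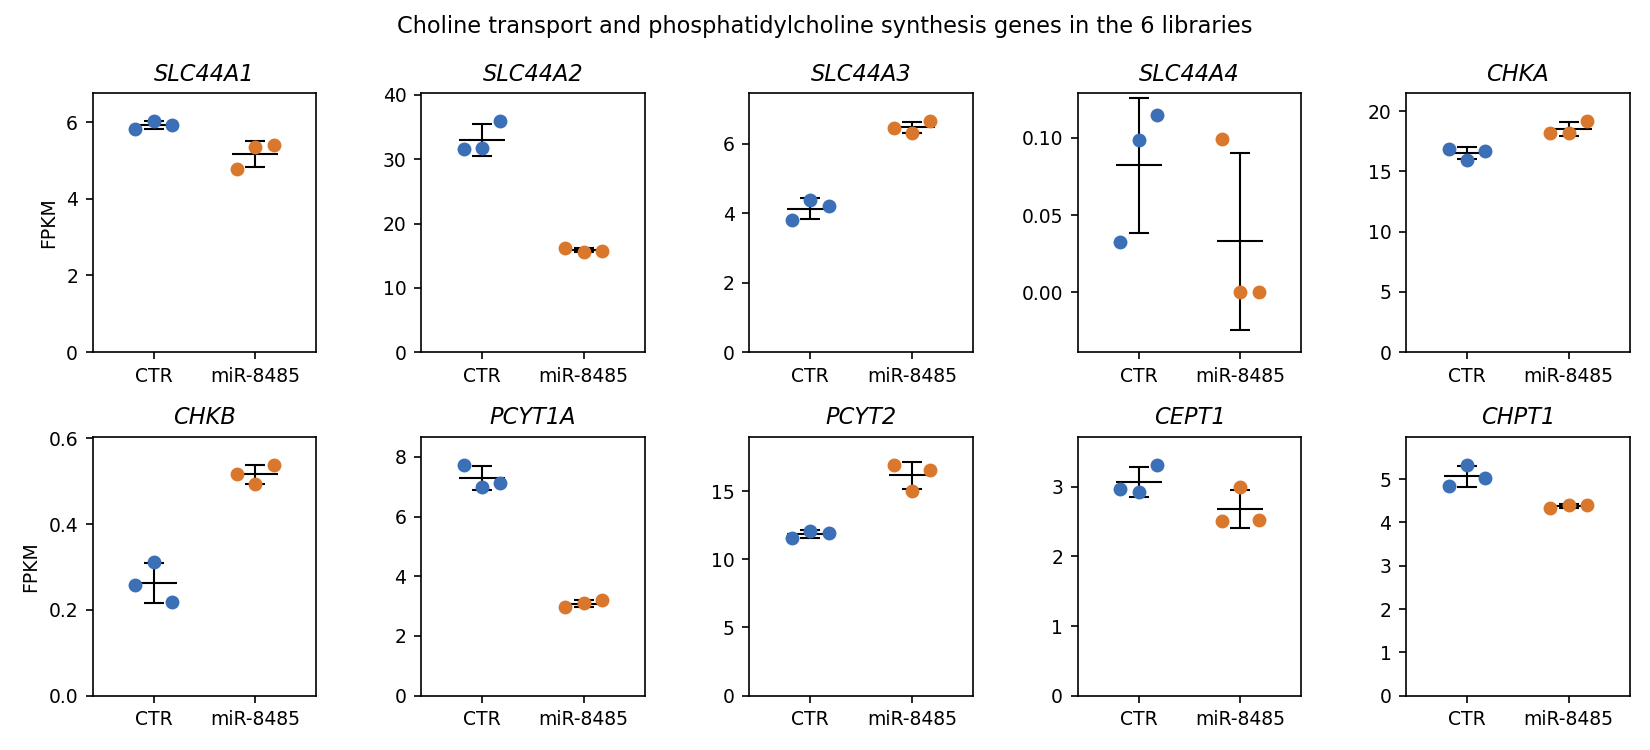
FPKM of each of the 10 genes (vertical axis, a separate scale per gene) in the 3 CTR libraries (blue points) and the 3 miR-8485 libraries (orange points), with the mean (long bar) and SD (whiskers). The points of the 2 groups lie apart for every gene except CEPT1 and SLC44A4. The scale of SLC44A4 extends below 0 only to show its whisker.

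SLC44A2 encodes a choline transporter of the plasma membrane and mitochondria that also carries a neutrophil alloantigen, and it was the most abundant of the 10 genes in control cells. Its level was 31.5, 31.7 and 35.9 FPKM in CTR replicates 1 to 3 and 16.2, 15.6 and 15.8 FPKM in miR-8485 replicates 1 to 3. Every miR-8485 library lay near a level that no CTR library approached. This was a log2 fold change of -1.05 with a standard error of 0.06 (limma, Benjamini-Hochberg adjusted p = 1.1e-05), and it was called in all 16 alternative fits that were run, with values from -1.09 to -0.99 when a library was left out. The gene, on chromosome 19 from 10602457 to 10644559, was read with 2965, 2993 and 3390 fragments in CTR and 1514, 1475 and 1567 in miR-8485.

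SLC44A1, the choline transporter from which the group was built, lies on chromosome 9 from 105244622 to 105439171. It was measured at 5.81, 6.02 and 5.92 FPKM in CTR and at 4.78, 5.35 and 5.39 FPKM in miR-8485. The groups did not overlap, and miR-8485 replicate 1 was the lowest of its group. The mean of 5.17 ± 0.338 FPKM (SD, n = 3) was 87.4% of the CTR mean of 5.92 ± 0.106 FPKM (SD, n = 3). This gave a log2 fold change of -0.19 with a 95% interval of -0.34 to -0.04 and a standard error of 0.06 (limma, Benjamini-Hochberg adjusted p = 0.0352). The study tested counts with DESeq2, a different test and input, and reports SLC44A1 among its significantly lowered miR-8485 targets. In the FPKM used here, the fold change kept its sign in all 16 alternatives, with adjusted p from 0.0099 to 0.0997 in limma, and was -0.31 after rescaling to TPM. With voom on recovered fragments it was also called (-0.19, limma adjusted p = 0.0130). The call was lost when CTR replicate 1, 2 or 3 or miR-8485 replicate 1 or 2 was left out (log2 fold change -0.20, -0.18, -0.19, -0.14 and -0.22), and also with all genes above 0 in the fit (limma adjusted p = 0.0761) and after quantile normalization (limma adjusted p = 0.0758).

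SLC44A3, a less studied member of the family, moved in the other direction. It had 3.79, 4.37 and 4.22 FPKM in CTR and 6.44, 6.30 and 6.64 FPKM in miR-8485. All miR-8485 libraries were above all CTR libraries, and limma put the rise at 0.64 on the log2 scale with a standard error of 0.07 (adjusted p = 1.9e-04), called in all 16 alternatives. SLC44A4, known as a carrier of thiamine pyrophosphate in colon epithelium, was barely detected, with 2, 6 and 7 fragments in CTR replicates 1 to 3 against 6, 0 and 0 with the mimics. The groups overlapped, and at this depth no change could be seen. A count of 0 is compatible with up to 3 fragments, and such limits cover counting error only.

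The summed level of SLC44A1 to SLC44A4 was 41.2, 42.2 and 46.2 FPKM in CTR and 27.5, 27.3 and 27.8 FPKM in miR-8485, or 63.7% of the control mean. SLC44A2 made up 75.1% to 77.8% of this sum in the CTR libraries and 56.7% to 58.8% in the miR-8485 libraries. Without it, the sum of the other 3 was 10.1 ± 0.445 FPKM in CTR and 11.7 ± 0.355 FPKM in miR-8485 (mean ± SD, n = 3 each), higher with the mimics and without overlap. Within this sum, the mean of SLC44A1 fell from 5.92 to 5.17 FPKM and that of SLC44A3 rose from 4.13 to 6.46 FPKM. The sum was not computed after rescaling to TPM.

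Choline kinases add the phosphate that traps choline in the cell. CHKA was measured at 16.8, 16.0 and 16.7 FPKM in CTR and at 18.2, 18.2 and 19.2 FPKM in miR-8485, a small difference without overlap. Its rise of 0.17 on the log2 scale, with a standard error of 0.05 (limma, adjusted p = 0.0179), was past the threshold with the FPKM as deposited. Rescaled to TPM it was 0.05 (limma adjusted p = 0.526, the highest of its 16 alternatives, whose lowest was 0.0087), and the call was also lost without CTR replicate 2 or miR-8485 replicate 3 (0.14 in both). CHKB, which acts on choline and ethanolamine and whose loss causes a muscular dystrophy, was far lower, with 0.257, 0.311 and 0.219 FPKM in CTR and 0.516, 0.494 and 0.539 FPKM in miR-8485. These values rest on 14, 17 and 12 fragments in CTR and 28, 27 and 31 in miR-8485, so that the groups did not overlap but counts were small. Fitted with all 31768 genes above 0, of which 22.1% were called (10.8% higher and 11.3% lower), its log2 fold change of 0.77 (standard error 0.27, 95% interval 0.13 to 1.42) missed the threshold in limma, at an adjusted p of 0.0994. It was called in 2 of 15 alternatives, a pseudocount of 1 (0.26, limma adjusted p = 0.0383) and limma without a variance trend (adjusted p = 0.0129), over a range of 0.0129 to 0.178. In GENCODE, 2078 of its 2866 exon bases are shared with CHKB-CPT1B, a read-through gene on the same strand listed at a mean of 0.148 FPKM, so the counting could have divided or dropped its fragments. CHKA made up 98.1% to 98.7% of the summed level of both kinases in CTR and 97.2% to 97.4% in miR-8485.

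PCYT1A encodes CCT alpha, which makes CDP-choline and is the enzyme that sets the pace of phosphatidylcholine synthesis in most cells. It had the largest fall of the 8 members tested. Its level was 7.74, 6.98 and 7.14 FPKM in CTR and 2.96, 3.10 and 3.20 FPKM in miR-8485. No miR-8485 library exceeded 3.20 FPKM and no CTR library was below 6.98 FPKM. On the log2 scale the change was -1.21 with a 95% interval of -1.37 to -1.06 and a standard error of 0.07 (limma, adjusted p = 9.6e-06), which was lower than in all but 3.0% of the tested genes. It was called in all 16 alternatives, with values from -1.24 to -1.17 when a library was left out. The gene (chromosome 3, minus strand, 196214222 to 196287957) was read with 1113, 1008 and 1031 fragments in CTR and 424, 447 and 486 in miR-8485. Of its 7967 exon bases in GENCODE, 321 are shared with an unnamed gene on the same strand, listed at 0. On the opposite strand, 389 are shared with SLC51A, listed at a mean of 0.327 FPKM.

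PCYT2, which encodes the corresponding enzyme of the ethanolamine branch, rose. It had 11.5, 12.1 and 11.9 FPKM in CTR and 16.9, 15.0 and 16.5 FPKM in miR-8485, with no overlap. The rise was 0.44 on the log2 scale with a standard error of 0.06 (limma, adjusted p = 4.5e-04), and it was called in all 16 alternatives, rescaling to TPM included (0.33). Of its exon bases, 34 are shared with ANAPC11 on the opposite strand, a gene listed at a mean of 19.1 FPKM, and 1948 with NPB, listed at 0. On the opposite strand, CEPT1 shares 414 exon bases with DRAM2, listed at a mean of 7.97 FPKM, and CHKA shares 631 of 3877 with an unnamed gene listed at 1.33 FPKM. The strand setting of the counting is not given in the sources used here, and without strand such fragments cannot be assigned to one gene.

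CHPT1 and CEPT1 encode the enzymes of the last step, the transfer of the phosphocholine group to diacylglycerol. The product of CHPT1 works in the Golgi on CDP-choline, and that of CEPT1 in the endoplasmic reticulum on CDP-choline and CDP-ethanolamine. CHPT1 had 4.83, 5.33 and 5.02 FPKM in CTR and 4.32, 4.39 and 4.40 FPKM in miR-8485. The groups lay apart, and the change of -0.21 on the log2 scale, with a standard error of 0.06 (limma, adjusted p = 0.0212), was past the threshold. It was not called without CTR replicate 2 or without miR-8485 replicate 1, 2 or 3 (log2 fold change -0.17, -0.20, -0.21 and -0.21), with limma adjusted p from 0.0033 to 0.0759 over its 15 alternatives, and was -0.32 after rescaling to TPM. CEPT1 had 2.97, 2.92 and 3.32 FPKM in CTR and 2.51, 2.99 and 2.52 FPKM in miR-8485. Because miR-8485 replicate 2 was above CTR replicates 1 and 2, the groups overlapped. The log2 fold change was -0.19 with a 95% interval of -0.43 to 0.04 (adjusted p = 0.126 in limma), and over its 15 alternatives it was called only after rescaling to TPM (-0.31, limma adjusted p = 0.0324, in a range of 0.0324 to 0.316).

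**Figure D2:**
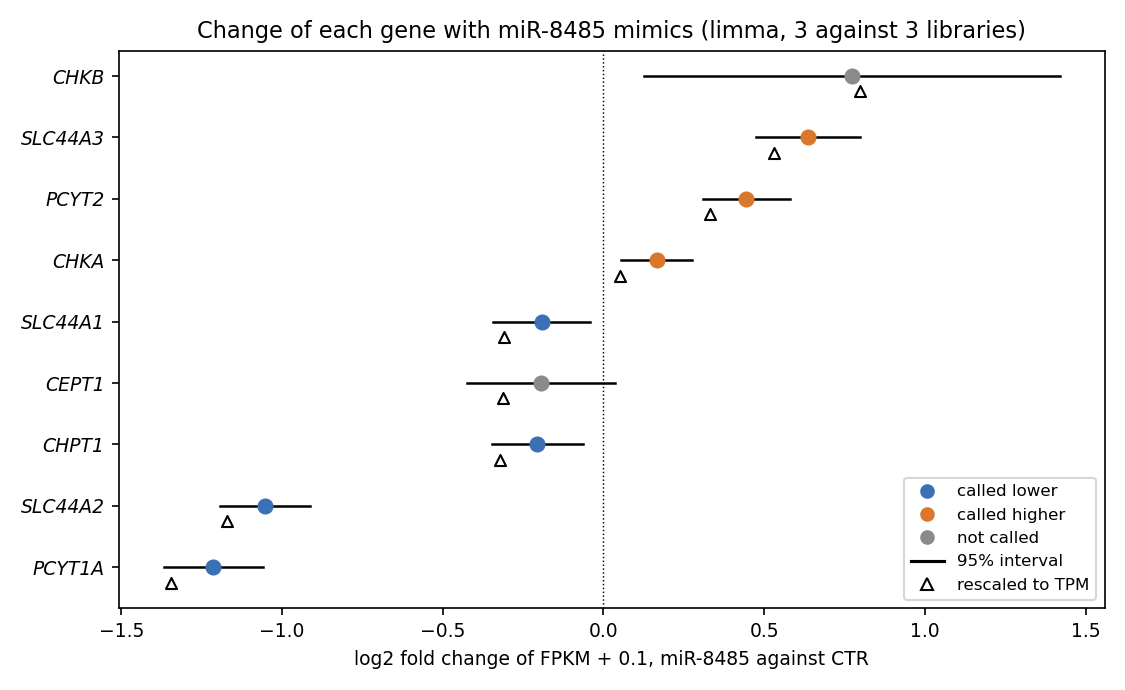
Log2 fold change of FPKM + 0.1, miR-8485 against CTR (horizontal axis), for 9 genes, as limma estimates (circles, blue where called lower, orange where called higher, grey where not called) with 95% intervals (lines) and as values rescaled to TPM (triangles). PCYT1A at -1.21 and SLC44A2 at -1.05 stand apart from the rest, the TPM triangle of CHKA lies near 0, and SLC44A4 is not drawn because of its low counts. CHKB was fitted together with every gene above 0.

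The order of the levels changed between the groups. In CTR, the genes ranked from highest to lowest as SLC44A2, CHKA, PCYT2, PCYT1A, SLC44A1, CHPT1, SLC44A3, CEPT1, CHKB and SLC44A4, and no neighbours in this order overlapped over the 3 libraries. In miR-8485, the order was CHKA, PCYT2, SLC44A2, SLC44A3, SLC44A1, CHPT1, PCYT1A, CEPT1, CHKB and SLC44A4. PCYT2 overlapped with SLC44A2 there, and PCYT1A with CEPT1. PCYT1A thus stood above CHPT1 and CEPT1 in control cells and below CHPT1 in miR-8485, where it was still higher than CEPT1 within each library.

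For 4 pairs of related genes, the log2 ratio was taken within each library, where the library total cancels out. It was compared by a two-sided exact permutation test over the 6 libraries, of which 3 against 3 allow no p below 0.1. The ratio of PCYT1A to PCYT2 was -0.58, -0.79 and -0.74 in CTR and -2.52, -2.28 and -2.37 in miR-8485, a difference of -1.69 on the log2 scale. That of SLC44A1 to SLC44A2 was -2.44, -2.40 and -2.60 in CTR and -1.76, -1.55 and -1.55 in miR-8485, higher by 0.86. PCYT1A was thus lower relative to PCYT2, and SLC44A1 higher relative to SLC44A2, in every miR-8485 library than in any CTR library. CHKA to CHKB had 6.03, 5.68 and 6.25 in CTR and 5.14, 5.20 and 5.15 in miR-8485, with the small counts of CHKB behind it. In each of these 3 ratios the groups did not overlap, and the exact permutation p was 0.1, the smallest possible (0.133 after Benjamini-Hochberg adjustment over the 4 ratios). For PCYT1A to PCYT2 this outcome was already set, because its genes moved in opposite directions without overlap, so the test adds nothing there. How often ratios of other gene pairs separate the groups was not computed. Of single tested genes, 66.5% did not overlap. CHPT1 to CEPT1 had overlapping values, 0.70, 0.87 and 0.60 in CTR and 0.78, 0.55 and 0.80 in miR-8485. Their difference was -0.0083, well within SDs of 0.136 and 0.137 (exact permutation p = 1).

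**Figure D3:**
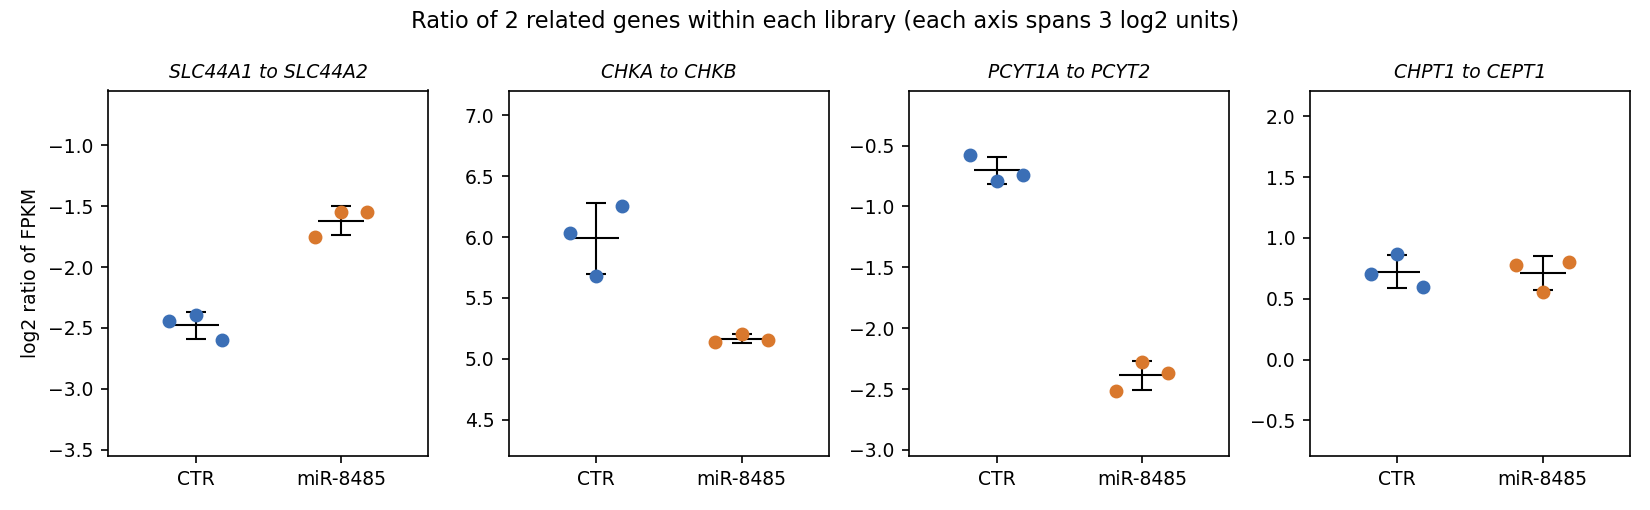
Log2 ratio of the FPKM of 2 related genes within each library (vertical axes, all spanning the same number of log2 units), for CTR (blue points) and miR-8485 (orange points), with mean (long bar) and SD (whiskers) over n = 3. The groups lie apart for SLC44A1 to SLC44A2, CHKA to CHKB and PCYT1A to PCYT2, and overlap for CHPT1 to CEPT1.

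Genes around this route were taken from 8 lists of 83 genes in all, of which 64 were above the filter, the 8 members included. The lists were chosen with earlier results of these data known, so the shares given for them are a description and not a test. Of the 64, 20 were called higher (31.2%) and 27 lower (42.2%), against 29.1% and 30.5% of all tested genes, with a median log2 fold change of -0.15 against -0.0041. After rescaling to TPM the counts were 14 higher and 33 lower, with a median of -0.27 against -0.12 for all tested genes. Without the members, 17 of 56 were higher and 23 lower.

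Among other carriers of choline, FLVCR1, a choline and ethanolamine transporter first known as a heme exporter, had 4.01 ± 0.205 FPKM in CTR and 1.88 ± 0.330 FPKM in miR-8485 (mean ± SD, n = 3 each), lower by limma with -1.07 on the log2 scale (adjusted p = 3.2e-04). SLC44A5, the remaining gene of the SLC44 family, rose from 0.855 to 1.67 FPKM (0.89 on the log2 scale, adjusted p = 0.0014 in limma). With a pseudocount of 1 the rise was 0.53. Its CTR mean was below the filter of 1 FPKM, so it passed only through its miR-8485 level. It is counted among the 20 list genes called higher. With all genes above 0 in the fit it was also called (limma adjusted p = 0.0026). SLC5A7 and FLVCR2 were below the filter, as was PCYT1B, the paralog of PCYT1A.

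In the ethanolamine branch with the phosphatidylserine route and PEMT, 2 of 8 tested genes were called higher (25.0%) and 3 lower (37.5%), near the shares of 29.1% and 30.5% over all tested genes. PISD, whose product makes phosphatidylethanolamine from phosphatidylserine in mitochondria, rose with PCYT2 (10.1 to 16.7 FPKM, log2 fold change 0.71). The ethanolamine kinase ETNK1 fell by 0.37 on the log2 scale and SELENOI, the ethanolamine phosphotransferase, by 0.49. PEMT, whose product methylates phosphatidylethanolamine to phosphatidylcholine, fell by 0.21 (adjusted p = 0.0296 in limma) and was called in 10 of 16 alternatives (-0.33 after rescaling to TPM), without CTR replicate 1 or 3 or miR-8485 replicate 2 or 3 not among them.

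Of 14 tested genes that supply or use phosphatidate and diacylglycerol, 7 were called lower (50%, against 30.5% of all tested genes) and 2 higher (14.3%, against 29.1%), with a median of -0.21. CDS1, whose product draws phosphatidate into CDP-diacylglycerol, had the largest fall of the list, from 7.74 ± 0.451 to 2.14 ± 0.255 FPKM (SD, n = 3, log2 fold change -1.81). GPAT3, which starts glycerolipid synthesis, had -1.46, and the acyltransferase AGPAT5 had -0.66. AGPAT1 rose by 0.57, and GPAM, a mitochondrial acyltransferase, by 0.23, the latter called in 7 of 15 alternatives and not after rescaling to TPM (0.12). It was not called either without CTR replicate 1, 2 or 3 or without miR-8485 replicate 2 or 3.

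Acyl chains of phospholipids, phosphatidylcholine among them, are exchanged by lysophospholipid acyltransferases. Of 8 such genes, 4 were called lower (50%, against 30.5% of all tested genes) and 2 higher (25.0%, against 29.1%). MBOAT2 (log2 fold change -1.53), LPCAT2 (-0.82) and MBOAT1 (-0.79) fell, and LPCAT1 rose (0.44). MBOAT7 was also called higher (0.31) but not without miR-8485 replicate 1 or 3, nor after rescaling to TPM (0.20). CTR replicate 1 was the lowest of its group for MBOAT7, at 20.4 FPKM against 25.6 and 26.5 FPKM, and without it the log2 fold change was 0.19, still called. In sphingomyelin turnover, which moves the phosphocholine group onto ceramide and back, 5 of 8 were called lower (62.5%, against 30.5% of all tested genes). In that list, 1 was called higher (12.5%, against 29.1%). The sphingomyelin synthases SGMS2 (-1.15) and SGMS1 (-0.66) and the related SAMD8 (-0.51) were among those that fell, and SMPDL3B rose (0.47).

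The list of phospholipases and other enzymes of phosphatidylcholine breakdown had 8 genes called higher and 3 lower of 13. That was 61.5% and 23.1%, against 29.1% and 30.5% of all tested genes, with a median of 0.19 against -0.0041. After rescaling to TPM, 5 were higher and 3 lower, with a median of 0.076. Over all tested genes the TPM shares were 21.2% higher and 38.3% lower, with a median of -0.12. PLA2G12A, a secreted phospholipase A2, rose from 3.25 ± 0.269 to 9.95 ± 0.330 FPKM (SD, n = 3, log2 fold change 1.59). PLA2G6 rose by 0.86 and GDPD1 by 0.59. The lysosomal phospholipase PLA2G15 fell by 0.42 (not called without miR-8485 replicate 1 or 2), GDPD5 by 0.33 and PNPLA8 by 0.26. In the list of choline oxidation and acetylcholine, 2 of 4 tested genes were called higher and none lower, against 29.1% and 30.5% of all tested genes. With only 4 genes, a difference from these shares was not tested. CHDH and ALDH7A1, whose products oxidize choline to betaine, rose by 0.48 and 0.44, SARDH and ACHE were not called, and the other 5 genes were below the filter.

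**Figure D4:**
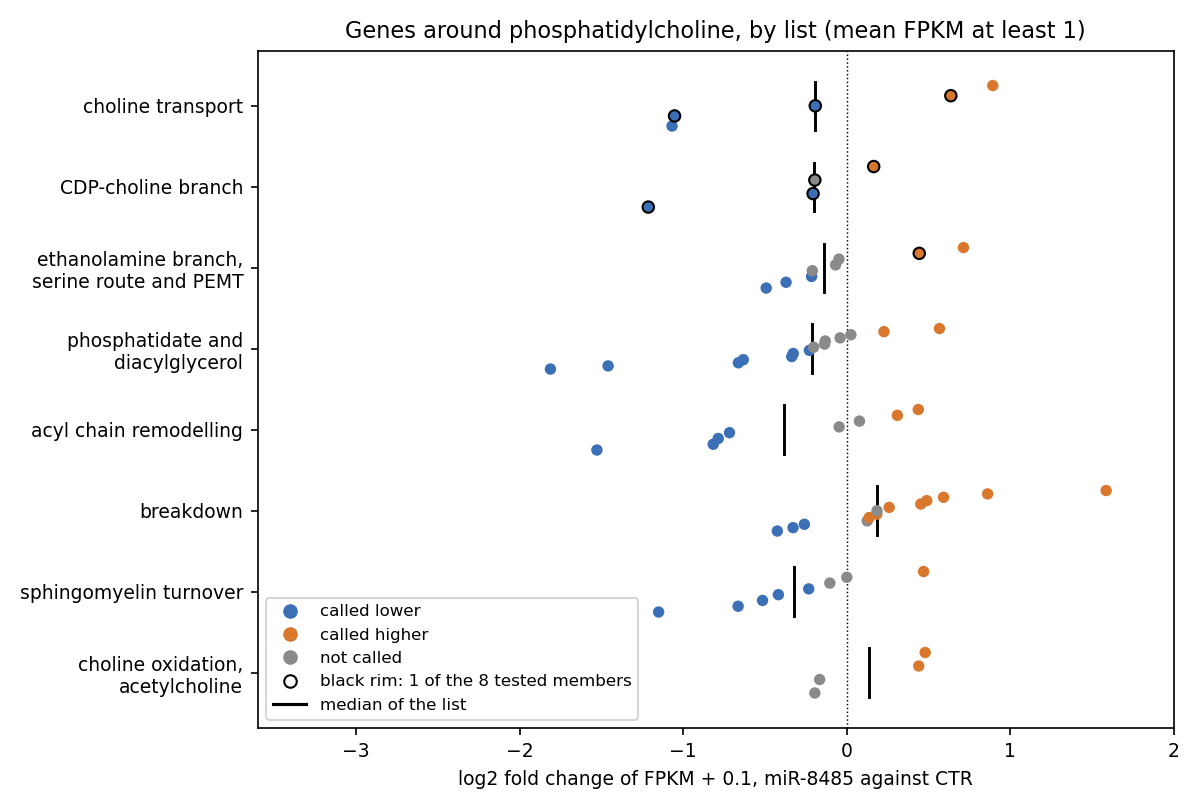
Log2 fold change of FPKM + 0.1, miR-8485 against CTR (horizontal axis), of the 64 list genes above the filter, 1 row of points per list, in blue where called lower, orange where called higher and grey where not called, with a black rim for the 8 tested members and a black bar at each list's median. Breakdown has 8 orange points of 13 (61.5%, against 29.1% of all tested genes called higher). The lists were chosen with earlier results of these data known. PCYT1A and SLC44A2 are the rimmed points at the far left.

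By Pearson's correlation of log2(FPKM + 0.1) with SLC44A1 over the 6 libraries, which share the difference between the groups, the nearest genes were ALG2, B4GALT1, ZSWIM8, JAZF1 and KLHL18, with r from 0.989 to 0.993. Their log2 fold changes were -0.37, -0.27, -0.30, -1.15 and -0.35. JAZF1, with -1.15, had means of 1.90 FPKM in CTR and 0.834 FPKM in miR-8485, so it passed the filter of 1 FPKM only through its CTR level. A high r with so few libraries describes these libraries and is given without a test.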

How the data were processed

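RNA-seq libraries of 3 CTR and 3 miR-8485 samples were grouped by their labels, and 0 value columns could not be assigned. The authors trimmed reads with fastp 0.23.1, mapped them to hg38 with HISAT2 2.0.5, counted with featureCounts 1.5.0-p3 and deposited FPKM. The main fit used these values with no further scaling between libraries, and whether the authors had scaled them was not tested. The annotation release and strand setting are not given in the sources used here. In every library, 100% of values above 0 were whole fragments (within 0.05) after gene length and depth were taken out. Differential expression was tested with limma 3.58.1 (R 4.3.3, variance trend, two-sided, Benjamini-Hochberg over all genes fitted), which was tested on simulated data. Members below the filter were fitted together with every gene above 0. The members and lists were chosen with earlier results of these data known. Named genes were the members, up to 3 rises and 3 falls per list among called genes without overlap, and the 5 genes most like SLC44A1. Other calculations used Python 3.11.15 with pandas 2.3.3 and numpy 2.4.6, and matplotlib 3.10.9. Replicate numbers are not stated to mark a shared batch. Alternatives were 2 pseudocounts, 2 filters, 3 scalings, voom on recovered fragments, no variance trend, a replicate block and each library left out.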

Additional observations from a re-analysis of the deposited data

How the results depend on the processing

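PCYT1A, SLC44A2, SLC44A3 and PCYT2 were called with the same direction in all 16 alternatives. Members called lower numbered 4, with a range of 2 to 3 when a library was left out (2 without CTR replicate 2 or without miR-8485 replicate 1 or 2), and members called higher numbered 3, with a range of 2 to 3. List genes called lower numbered 27, with 21 to 26 when a library was left out. They numbered 14 when only genes with a mean of at least 5 FPKM were tested, where fewer genes are tested. Calls in either direction over all tested genes numbered 7362, with 6560 to 7224 when a library was left out. The difference of the CHPT1 to CEPT1 ratio, -0.0083, changed sign without CTR replicate 2 (0.064) and without miR-8485 replicate 2 (0.071) and ranged from -0.071 to 0.071, and the cause was not tested. No paired design is stated, and deviations of same-numbered libraries from their group means correlated by 0.067, 0.033 and -0.064. With the replicate block, 4 members were called lower and 3 higher, as without it, and 27 and 20 list genes. Over all tested genes 7388 were called with the block. Levels are shares of a library, so RNA per cell is not visible, and low counts limit CHKB and SLC44A4.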
